A study of Mus musculus with 16 samples.

Results

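Syndecans and glypicans are the main families of cell-surface proteoglycans that carry heparan sulfate. The genes described here are 4 syndecans (Sdc1, Sdc2, Sdc3 and Sdc4) and 4 glypicans (Gpc1, Gpc3, Gpc4 and Gpc6), chosen by name and matched by symbol to the Ensembl identifiers of a read count table from cultured mouse cardiac fibroblasts. They are 8 of the 55414 genes in the table, and all 8 were among the 15285 genes that passed the filter on low counts. Their identifiers are ENSMUSG00000020592 (Sdc1, chromosome 12), ENSMUSG00000022261 (Sdc2, chromosome 15), ENSMUSG00000025743 (Sdc3, chromosome 4), ENSMUSG00000017009 (Sdc4, chromosome 2), ENSMUSG00000034220 (Gpc1, chromosome 1), ENSMUSG00000055653 (Gpc3, chromosome X), ENSMUSG00000031119 (Gpc4, chromosome X) and ENSMUSG00000058571 (Gpc6, chromosome 14). The remaining mouse glypicans, Gpc2 and Gpc5, were examined beside them.

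RNA was sequenced from 16 cultures that fall into 4 groups of 4, named GFP, Cre, GFP_TGFB and Cre_TGFB in the labels. GFP cells had received an adenovirus carrying green fluorescent protein, and Cre cells an adenovirus carrying Cre recombinase. Cre was meant to delete the hyaluronan synthase gene Has2, and the sample titles name a knockout of its exon 2. The other groups had received the same viruses followed by transforming growth factor beta (TGF-beta), the growth factor that turns fibroblasts into contractile myofibroblasts. Each group held 1 culture from each of 4 cell preparations, of which preparations 1 and 4 were male and 2 and 3 female. All cells were heart fibroblasts at passage 2 that had been starved of serum for 24 h, exposed to virus for 5 h and collected after 48 h of stimulation, with TGF-beta at 20 ng/mL. The protocol describes the donors as Has2fl/fl mice, whereas the genotype field reads Wild Type C57BL/6J, so the genotype is uncertain. Basic fibroblast growth factor is named together with TGF-beta in 1 phrase of the protocol. Which of the groups received it, with or without TGF-beta, is uncertain. If only the TGF-beta groups received it, the differences given here for TGF-beta belong to both factors together, and their parts cannot be told apart. Not given in the sources used here are the age of the mice and the share of cells that took up virus. Whether the cultures of 1 preparation came from 1 heart or from several is likewise not given. The p-values of the main fit rest on the spread among the 4 preparations. Those of a second fit, with a term for preparation, rest on the spread left once differences between preparations are taken out.

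Syndecans span the membrane and end in a short cytoplasmic tail that binds adaptor and cytoskeletal proteins, while glypicans are held in the outer leaflet by a lipid anchor and have no tail. Both families hold growth factors, morphogens and matrix proteins through their heparan sulfate chains, and both can be released from the cell by proteases or lipases. In the heart, Sdc4 is known as a component of focal adhesions, and Sdc1 and Sdc4 have been studied in fibroblasts and muscle under load and after injury.

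Depth ranged from 17.9 to 48.7 M counts per library. Preparation 4 stood apart from the others: the top 10 genes of its 4 libraries drew 6.88% to 7.34% of the reads counted, against 10.3% to 12.1% in the other 12. Has2 itself did not pass the test between Cre and GFP cells (log2 difference of -0.35 ± 0.26, SE, without TGF-beta and -0.03 ± 0.26 with it), so the groups are named by virus and not by loss of the gene. The Has2 count covers the whole gene, so it cannot show whether the targeted exon was lost. The 10 fibroblast markers summed to between 20920 and 47190 counts per M counts of the scaled library (CPM) in GFP cells, and the 10 macrophage and leukocyte markers, none of which was at 0 in any group, to between 691 and 1506 CPM. Cardiomyocyte markers summed to at most 16.8 CPM in GFP cells, with 4 of 10 at 0 in all 4 libraries.

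The first question was which of these proteoglycans the fibroblasts expressed. Dividing CPM by exon length gives CPM per kb, the scale on which genes can be compared with each other. On that scale Sdc3, the syndecan with the longest ectodomain, stood highest in GFP cells at 152.6 ± 14.2 CPM per kb (SD, n = 4 in each group), and no other member reached its lowest library. Sdc4, the focal adhesion syndecan, followed at 82.8 ± 15.7 CPM per kb. Sdc1 came next at 66.8 ± 9.29 and Sdc2, once named fibroglycan, at 55.4 ± 6.63. The ranges of Sdc4 and Sdc1 overlapped, as did those of Sdc1 and Sdc2 and those of Sdc2 and Gpc4.

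Gpc4 was the highest glypican, at 46.5 ± 8.82 CPM per kb in GFP cells. Gpc6 and Gpc1 stood at 15.4 ± 6.95 and 14.3 ± 2.34 CPM per kb, with overlapping ranges. Gpc3, the glypican best known as a growth inhibitor in the embryo, was far lower at 2.68 ± 1.89 CPM per kb. Gpc2, known mainly from the developing nervous system, was lower again at 0.284 ± 0.0453 CPM per kb and passed no test in any comparison. Gpc5 had 0 counts in 14 of 16 libraries, which allows up to 0.175 CPM (3 counts in the shallowest of them), and at most 2 counts in the others. Intervals and limits of this kind cover counting error only.

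**Figure D1:**
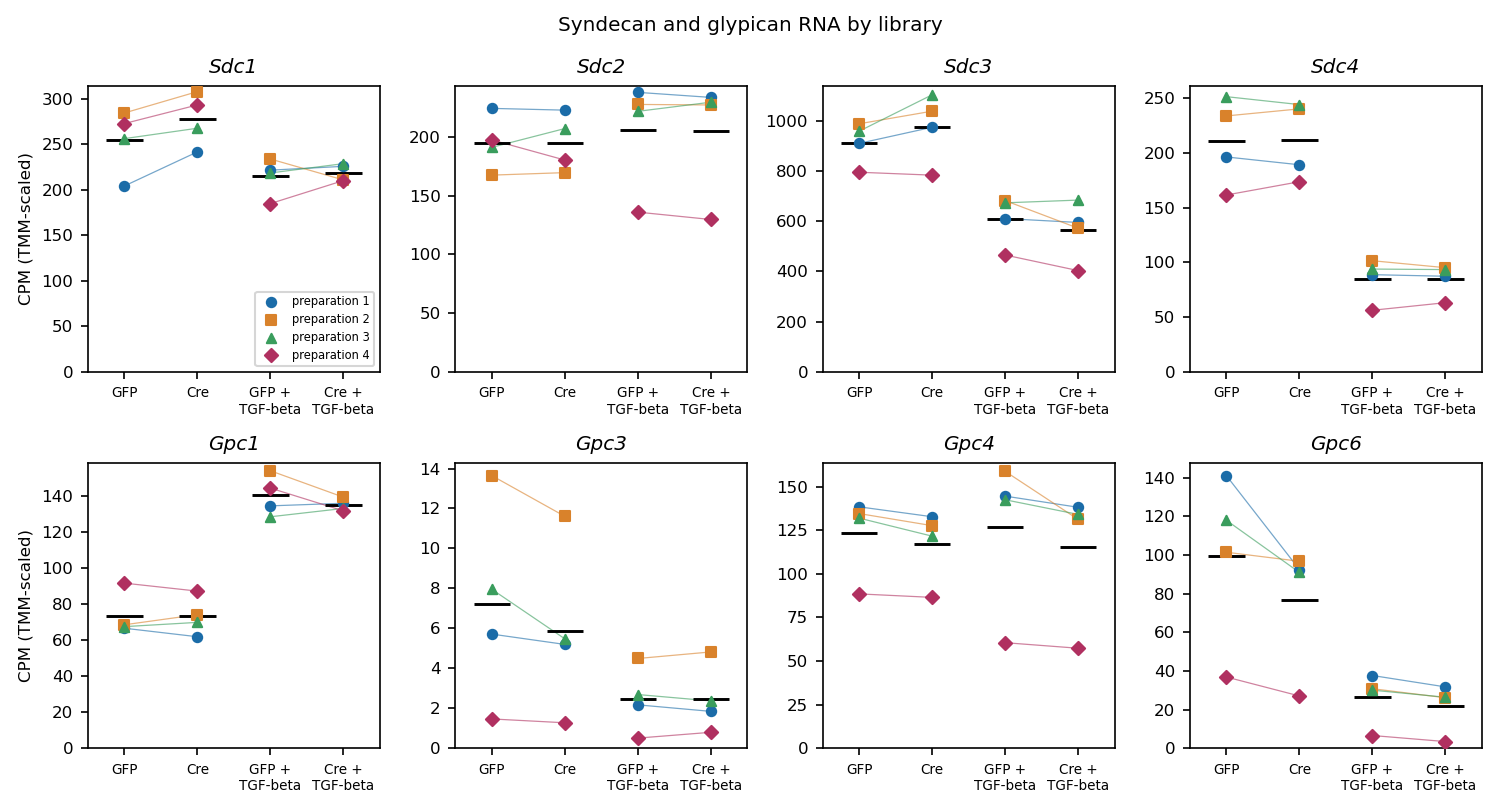
Level of each syndecan and glypican in CPM, on a linear axis from 0, in the 16 libraries by group. Markers give the preparation, thin lines join libraries of 1 preparation across viruses, and black bars are group means. Sdc3 is highest in every group, and Sdc4 and Gpc6 are lower and Gpc1 higher with TGF-beta. In every group preparation 4 lies below the other preparations for Sdc3, Sdc4, Gpc3, Gpc4 and Gpc6.

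TGF-beta was then compared with no TGF-beta in GFP cells. Of the 8 genes, 1 was called higher (Gpc1) and 3 lower (Sdc3, Sdc4 and Gpc6) by edgeR's quasi-likelihood test at a Benjamini-Hochberg adjusted p under 0.05. Over all genes tested 29.1% were called, 13.8% higher and 15.3% lower. In 3 of the 8 (Sdc3, Sdc4 and Gpc1) the ranges of the groups did not overlap, which held for 29.8% of all genes. The members' median log2 fold change was -0.42, and that of all genes -0.02.

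Sdc4 had the largest change among the syndecans. It stood at 196, 234, 252 and 162 CPM in the GFP libraries of preparations 1 to 4 and at 88.8, 102, 94.0 and 56.3 CPM in the same preparations with TGF-beta. Every library with TGF-beta lay below every library without it, and preparation 4 was the lowest in both media. The fall was -1.31 ± 0.20 (log2 fold change ± SE, adjusted p = 0.000163, edgeR), a 2.48-fold drop. In Cre cells the Sdc4 values went from 189, 240, 244 and 174 CPM to 87.4, 95.2, 93.5 and 63.2 CPM, again with no overlap, and the fall was -1.32 ± 0.20 (adjusted p = 0.000148, edgeR).

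Sdc3, a syndecan studied mostly in nerve and muscle, stood at 911, 989, 960 and 796 CPM in GFP cells and at 611, 683, 674 and 466 CPM with TGF-beta. All 4 preparations were lower with TGF-beta and the groups did not overlap. Its fall of -0.59 ± 0.16 (adjusted p = 0.0133, edgeR) was smaller than that of Sdc4, but from the highest level of the family. Sdc3 values in Cre cells went from 975, 1039, 1105 and 784 CPM to 596, 573, 685 and 404 CPM, a fall of -0.79 ± 0.16 (adjusted p = 0.00198, edgeR) with the groups apart. In this fit, which has no term for preparation, the call in GFP cells was lost when preparation 1, 2 or 3 was left out whole (adjusted p of 0.107, 0.0780 and 0.0587). With a term for preparation, Sdc3 was called lower in GFP cells (-0.60, adjusted p = 8.11e-06, edgeR). It was then also called with any 1 preparation left out (adjusted p of at most 0.00044).

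Stretches upstream of the start sites of the 3 syndecans called lower in either cell group are printed here, since their calls were in 1 direction. They come from the RefSeq promoter table for GRCm38.p6, an earlier build than the one the reads were counted on, and each reads 5′ to 3′ on the gene's strand. The table had entries for 5 of the 8 genes and none for Sdc2, Gpc1 and Gpc6. Capitals mark every match on either strand to a GC box (GGGNGGGGC), the site bound by Sp1-like factors, or to the short SMAD site (CAGAC), the letters bound by the proteins that carry the TGF-beta signal to DNA.
Sdc4 (chr2:164443189-164443438, minus strand): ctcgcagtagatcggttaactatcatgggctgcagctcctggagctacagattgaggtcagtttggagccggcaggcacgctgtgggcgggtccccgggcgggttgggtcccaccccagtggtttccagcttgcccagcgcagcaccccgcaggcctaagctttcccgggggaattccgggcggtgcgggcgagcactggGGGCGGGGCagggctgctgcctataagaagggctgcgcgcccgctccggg
Sdc3 (chr4:130792287-130792536, plus strand): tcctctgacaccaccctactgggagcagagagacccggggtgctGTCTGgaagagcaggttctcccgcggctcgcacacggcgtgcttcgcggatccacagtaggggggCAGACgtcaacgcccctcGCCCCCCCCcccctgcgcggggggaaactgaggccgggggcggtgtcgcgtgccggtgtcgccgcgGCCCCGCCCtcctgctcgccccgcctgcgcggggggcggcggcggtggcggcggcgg
Sdc1 (chr12:8771146-8771322, plus strand): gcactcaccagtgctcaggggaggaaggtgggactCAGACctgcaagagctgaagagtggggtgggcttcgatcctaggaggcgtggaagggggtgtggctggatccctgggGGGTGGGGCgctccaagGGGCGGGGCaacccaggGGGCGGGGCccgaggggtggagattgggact

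The Sdc1 stretch stops before the first annotated exon base. The bases just after the start used for Sdc4, and for Gpc3, were found in no GENCODE M21 transcript of the gene, so these 2 starts are uncertain. In the 250 bases before the start, the GC box occurred once in Sdc4 and in Gpc3, at 2 places in Sdc3 and at 3 in Sdc1. At least 1 was held by 15.5% of the 32851 windows of that length in the table. The member windows were 66% to 76.4% G and C, and the share over all windows was not matched for this, so no enrichment is shown. The short SMAD site, held by 42.2% of windows, was found at 1 place in Sdc1 and 2 in Sdc3. The SMAD palindrome (GTCTAGAC, in 0.167% of windows) and the AP-1 site (TGANTCA, in 6.75%) were in none of the 5 member windows. The TEAD site (CATTCC, in 12.6% of windows) was in that of Gpc4 alone. The Gpc4 window already begins within an annotated exon of the gene, so this match is not shown to lie upstream of the gene. All motifs were searched on both strands, and no motif's letters contain those of another. These are matches of letters and show no binding.

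Sdc1 and Sdc2 moved less. Sdc1, the syndecan best known from epithelia and plasma cells, was at 204, 284, 256 and 273 CPM in GFP cells and at 221, 234, 218 and 185 CPM with TGF-beta. Preparation 1 was higher with TGF-beta and the other 3 lower, the ranges overlapped, and the difference of -0.24 ± 0.11 did not pass (adjusted p = 0.119, edgeR). In Cre cells Sdc1 was at 242, 308, 267 and 293 CPM without TGF-beta and at 226, 211, 229 and 210 CPM with it. There the groups did not overlap and Sdc1 fell by 0.34 ± 0.11 on the log2 scale (adjusted p = 0.0316, edgeR). The Sdc1 call in Cre cells was lost without Cre replicate 2 (-0.29, adjusted p = 0.0996) or 4 (-0.30, 0.0640), without Cre_TGFB replicate 1 (-0.36, 0.0505), 2 (-0.33, 0.0737) or 4 (-0.32, 0.0611), and without preparation 2 (-0.27, 0.191), 3 (-0.37, 0.110) or 4 (-0.29, 0.0563). In GFP cells Sdc1 passed only when GFP replicate 1 was left out (-0.34, adjusted p = 0.0338), among the single libraries left out. With a term for preparation Sdc1 was called lower in Cre cells (adjusted p = 0.00834, edgeR) but not in GFP cells (0.0508). That call in Cre cells was lost when preparation 2 was left out (-0.27, adjusted p = 0.0941).

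Sdc2 was at 224, 168, 191 and 198 CPM in GFP cells and at 238, 228, 222 and 136 CPM with TGF-beta. Within preparations 1, 2 and 3 the level with TGF-beta was above that without it, by log2 differences of 0.09, 0.44 and 0.21, and in preparation 4 it was below, by -0.54. Over the 4 the difference was 0.08 ± 0.20 (adjusted p = 0.805, edgeR). The values in Cre cells were 223, 170, 207 and 180 CPM without and 234, 227, 230 and 130 CPM with TGF-beta. Preparation 4 was again the low library with TGF-beta. Without preparation 4, and with a term for preparation (a block) in the fit, Sdc2 was called higher in GFP cells (0.24, adjusted p = 0.0163, edgeR). The same held in Cre cells (0.22, adjusted p = 0.0251, edgeR). Over all genes that run called 8051 in GFP cells and 8586 in Cre cells. Of the 4 block runs that each left out a preparation, it was the only 1 in which Sdc2 was called.

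Gpc1 was the member that rose. This glypican, a co-receptor for fibroblast growth factors and vascular endothelial growth factor, stood at 66.6, 68.5, 67.5 and 91.6 CPM in GFP cells and at 134, 154, 128 and 144 CPM with TGF-beta. The lowest library with TGF-beta was above the highest without it, and preparation 4 was the high library of the GFP group. The rise was 0.93 ± 0.12 (adjusted p = 3.74e-05, edgeR), a 1.91-fold change. In Cre cells Gpc1 went from 61.9, 74.1, 69.8 and 87.2 CPM to 136, 139, 133 and 132 CPM, a rise of 0.88 ± 0.12 (adjusted p = 5.97e-05, edgeR) with no overlap. In GENCODE M21, 18.9% of the Gpc1 exon bases also lie in exons of Ankmy1 on the opposite strand, and Ankmy1 had at most 8 counts in any library.

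Gpc6 showed the steepest called fall. This glypican, known from skeletal growth and Hedgehog signalling, was at 141, 101, 118 and 36.8 CPM in GFP cells and at 37.6, 30.8, 30.1 and 6.62 CPM with TGF-beta. The ranges overlapped at 1 point, where preparation 4 without TGF-beta (36.8 CPM) lay just under preparation 1 with it (37.6 CPM). Within every preparation the level was lower with TGF-beta, and the fall was -1.92 ± 0.63 (adjusted p = 0.0314, edgeR), a 3.79-fold drop. In Cre cells Gpc6 went from 92.4, 96.7, 90.9 and 27.1 CPM to 31.8, 26.1, 26.4 and 3.49 CPM, a fall of -1.80 ± 0.63 (adjusted p = 0.0400, edgeR) with overlapping ranges.

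Without the block, the Gpc6 calls rested on most of the libraries. In GFP cells the call was lost without GFP replicate 1, 2 or 3 (-1.70, -1.91 and -1.84, adjusted p of 0.0848, 0.0547 and 0.0636) or GFP_TGFB replicate 2, 3 or 4 (-2.01, -1.99 and -1.60, adjusted p of 0.0560, 0.0600 and 0.0681). In Cre cells it was lost without Cre replicate 1, 2 or 3 (-1.70, -1.67 and -1.71, adjusted p of 0.0867, 0.0883 and 0.0777) or Cre_TGFB replicate 2, 3 or 4 (-1.90, -1.90 and -1.45, adjusted p of 0.0671, 0.0620 and 0.0636). Leaving out preparation 1, 2 or 3 whole also ended the Gpc6 calls (adjusted p of 0.141, 0.130 and 0.160 in GFP cells and 0.130, 0.174 and 0.164 in Cre cells). Without preparation 4 the Gpc6 adjusted p was 4.86e-07 in GFP cells and 9.08e-07 in Cre cells. In the fit with the preparation as block term Gpc6 was called in both (adjusted p of 6.69e-07 and 8.31e-07), and also with any 1 preparation left out (adjusted p of at most 8.43e-05).

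Gpc3, which like Gpc4 lies on chromosome X, was at 5.71, 13.6, 7.96 and 1.47 CPM in GFP cells and at 2.17, 4.49, 2.69 and 0.512 CPM with TGF-beta. Each preparation was lower with TGF-beta, but the preparations differed more from each other than the media did, and the ranges overlapped. The Gpc3 difference of -1.54 ± 0.74 did not pass (adjusted p = 0.137, edgeR). With the preparation as a block, which compares the media within each preparation, Gpc3 was called lower in GFP cells (-1.53 ± 0.15, adjusted p = 6.02e-07) and in Cre cells (-1.23 ± 0.14, adjusted p = 4.35e-06). Its values in Cre cells were 5.20, 11.6, 5.48 and 1.28 CPM without and 1.85, 4.82, 2.37 and 0.802 CPM with TGF-beta, a difference of -1.26 ± 0.73 without the block (adjusted p = 0.207, edgeR). Without preparation 4 it was called lower in the unblocked fit too, in GFP cells (-1.51, adjusted p = 0.0166) and in Cre cells (-1.31, adjusted p = 0.0298).

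Gpc4, the most abundant glypican, was at 138, 135, 132 and 88.5 CPM in GFP cells and at 145, 159, 142 and 60.5 CPM with TGF-beta. As for Sdc2, preparations 1, 2 and 3 had log2 differences above 0 (0.06, 0.24 and 0.11) and preparation 4 one below it (-0.55). The difference over all 4 was 0.04 ± 0.30 (adjusted p = 0.940, edgeR). In Cre cells Gpc4 was at 133, 128, 122 and 86.5 CPM without TGF-beta and at 138, 131, 134 and 57.4 CPM with it, with preparation 4 again lowest in both media. Unlike Sdc2, Gpc4 was not called in the block fit without preparation 4 (adjusted p of 0.0741 in GFP cells and 0.236 in Cre cells, edgeR).

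In Cre cells, TGF-beta thus gave 1 member called higher (Gpc1) and 4 lower (Sdc1, Sdc3, Sdc4 and Gpc6), 62.5% of the members against 30.3% of all genes tested. The groups did not overlap for 4 of the 8, against 28.3% of all genes. With the preparation as a block, 5 of 8 members were called in GFP cells, against 49.1% of all genes, and 6 of 8 in Cre cells, against 52.5%, the added gene being Gpc3 in both.

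**Figure D2:**
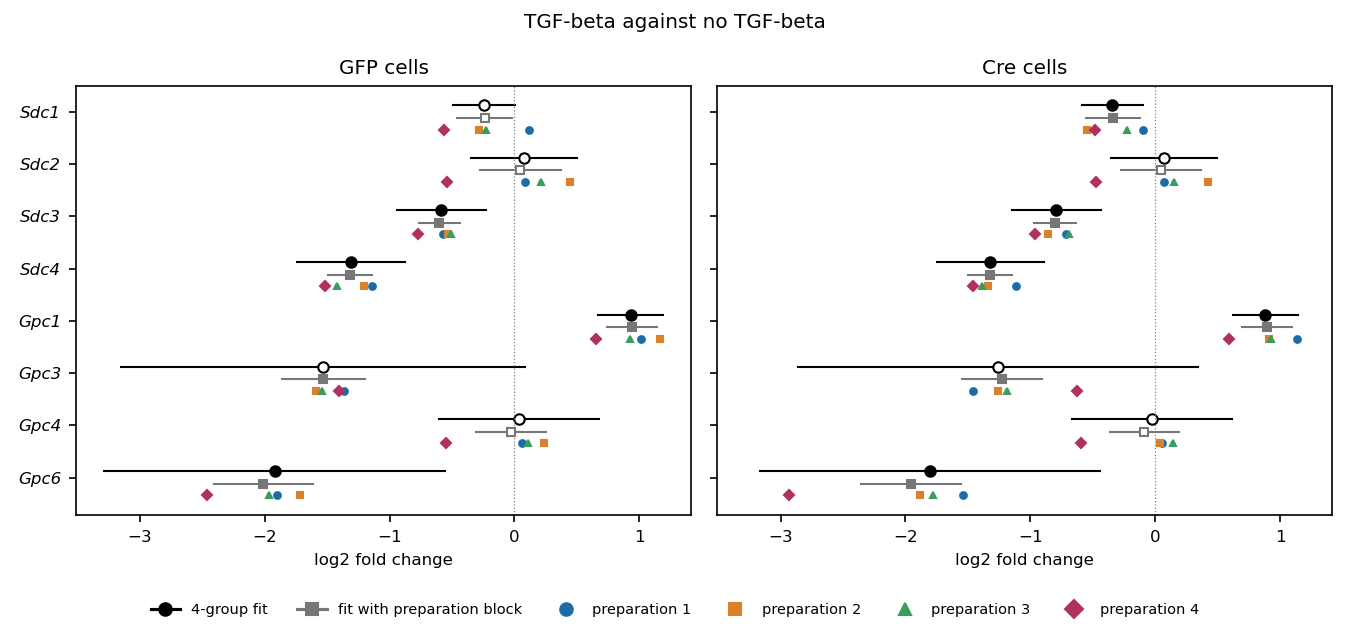
Log2 fold change of each member with TGF-beta against none, in GFP cells and in Cre cells, from the 4-group fit (black) and the fit with the block (grey), with 95% intervals as bars, filled symbols for genes called and coloured points for the 4 preparations. The bars are wider than the intervals of the test itself. Gpc1 lies at 0.93 and 0.88, Sdc4 at -1.31 and -1.32, and the preparations of Sdc2 and Gpc4 fall on both sides of 0.

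Marker lists were also compared between the media in GFP cells, where 15.3% of all genes tested were called lower (26.5% with the block). The summed level of the 10 macrophage and leukocyte markers was 437 to 949 CPM in GFP cells with TGF-beta, against 691 to 1506 without, with 2 of 10 called lower (10 of 10 in the fit with the block). That of the 9 endothelial markers was 20.1 to 30.7 CPM against 38.4 to 51.8, with 3 of 9 called lower (5 of 9 with the block). Of the 10 fibroblast markers, 8 were called lower, and with the block 8 lower and 2 higher. Their summed level was 17930 to 44230 CPM in GFP cells with TGF-beta, against 20920 to 47190 without, with overlapping ranges. Without the block, 3 of 8 pericyte and smooth muscle markers were called lower and 1 higher (4 and 2 with the block). Of 6 epithelial and mesothelial markers tested, 1 was called lower, and with the block 2 lower and 1 higher. Of 3 cardiomyocyte markers tested, 2 were called lower (3 with the block). Of 4 Schwann cell and neural markers tested, none was called without the block and 2 were called lower with it. The summed level of all 7 Schwann cell and neural markers was 4.50 to 7.97 CPM in GFP cells with TGF-beta, against 10.1 to 13.4 without. The part of these markers in the results was not tested, and in a bulk culture fewer cells of a type and less RNA per cell cannot be told apart.

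The makeup of each family also differed between the media. Summed over the 4 syndecans, the level was 357 ± 27.3 CPM per kb in GFP cells and 249.7 ± 42.4 with TGF-beta (SD, n = 4). Sdc4 supplied 23.0% of the syndecan sum without TGF-beta and 13.3% with it, and Sdc2, whose own level did not pass the test, 15.6% and 23.2%. Sdc3 held 42.6% and 40.7%.

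The sum over the 6 glypicans was 79.2 ± 14.5 CPM per kb in GFP cells and 80.2 ± 19.3 with TGF-beta, well within the spread. Inside that sum Gpc1 supplied 19.1% without and 35.9% with TGF-beta, while Gpc6 supplied 18.7% and 4.79%. Gpc4 had the largest mean share, at 58.7% and 57.9%. In preparation 4 with TGF-beta, however, Gpc1 held more than Gpc4, at 53.5% against 43.7% in GFP cells and 52.9% against 44.8% in Cre cells. In the order of CPM per kb with TGF-beta, Sdc3 (101.6) was followed by Sdc2 (58.4), Sdc1 (56.3) and Gpc4 (47.7), and then by Sdc4 (33.4), Gpc1 (27.2), Gpc6 (4.09) and Gpc3 (0.917). From Sdc2 down to Gpc1 each range overlapped the next, as did those of Gpc6 and Gpc3. With the length of the longest transcript Sdc1 (68.0) stood above Sdc2 (58.4).

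**Figure D3:**
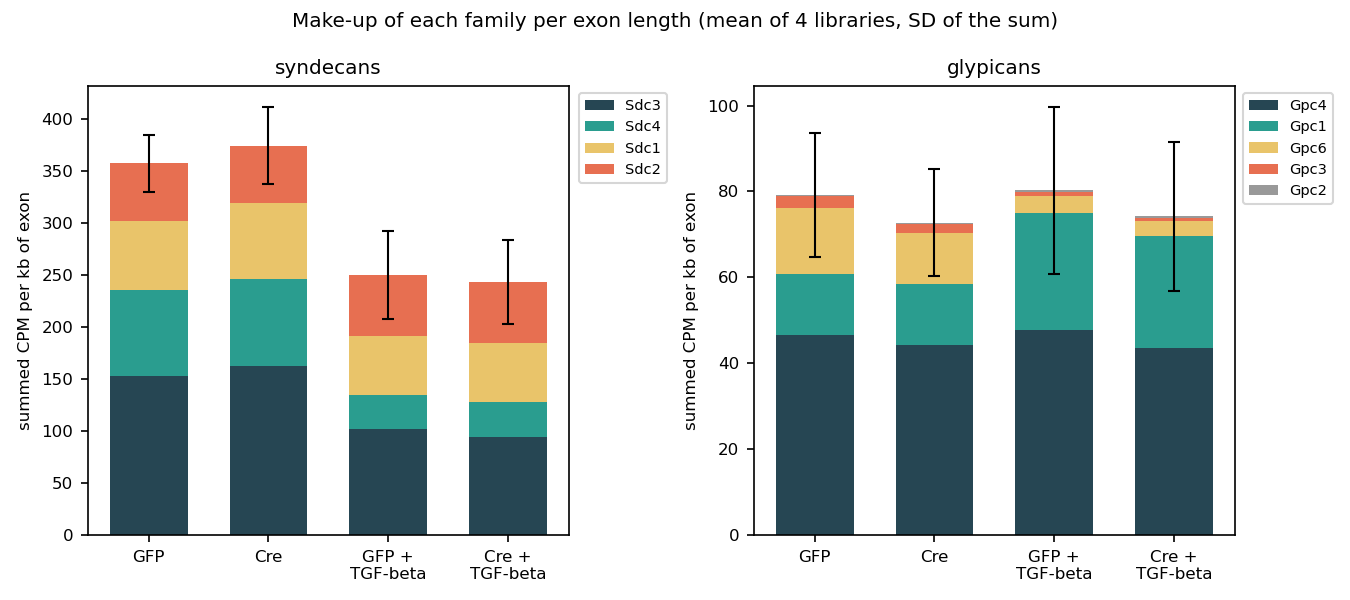
Summed CPM per kb of the syndecans and of the glypicans in each group, stacked by gene, as the mean of 4 libraries with the SD of the sum. In GFP cells the Sdc4 segment goes from 82.8 to 33.4 CPM per kb with TGF-beta and the Gpc1 segment from 14.3 to 27.2.

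Cre cells were compared with GFP cells to see whether the virus meant to remove Has2 moved these genes. None of the 8 was called in either medium by edgeR, where 0% of all genes tested were called. At an unadjusted p under 0.05 there were 0 members without the block. With the block 2 passed that unadjusted threshold without TGF-beta, Gpc3 and Gpc6, each with an adjusted p of 0.827, and DESeq2 called none. Over all genes, 169 of 15285 passed the unadjusted threshold without TGF-beta in the fit without the block and 882 in the fit with it. With the block 0.17% of all genes were called without TGF-beta and 0.0654% with it, and no member among them.

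Without TGF-beta the log2 differences, Cre minus GFP, ran from -0.37 ± 0.60 for Gpc6 to 0.13 ± 0.11 for Sdc1 (adjusted p of 0.9997 for both, edgeR). The 95% interval of the Sdc1 difference was -0.12 to 0.37, and Sdc1 was higher in the Cre library of 4 of 4 preparations, which held for 12.7% of all genes. For Gpc6 the interval in the fit with the block was -0.75 to 0.0052. It reaches past 0 although the unadjusted p was 0.0438 (edgeR), because the intervals given here are wider than those of the test. With TGF-beta the differences ran from -0.26 for Gpc6 to 0.03 for Sdc1.

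Gpc4 and Gpc6 were lower in the Cre library than in the GFP library of the same preparation in all 8 comparisons, 4 without and 4 with TGF-beta. Over all genes tested this held for 5.19%. For Gpc6 the pairs without TGF-beta were 141 and 92.4, 101 and 96.7, 118 and 90.9, and 36.8 and 27.1 CPM in preparations 1 to 4, GFP first. Neither gene passed the test in either medium, in either fit.

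**Figure D4:**
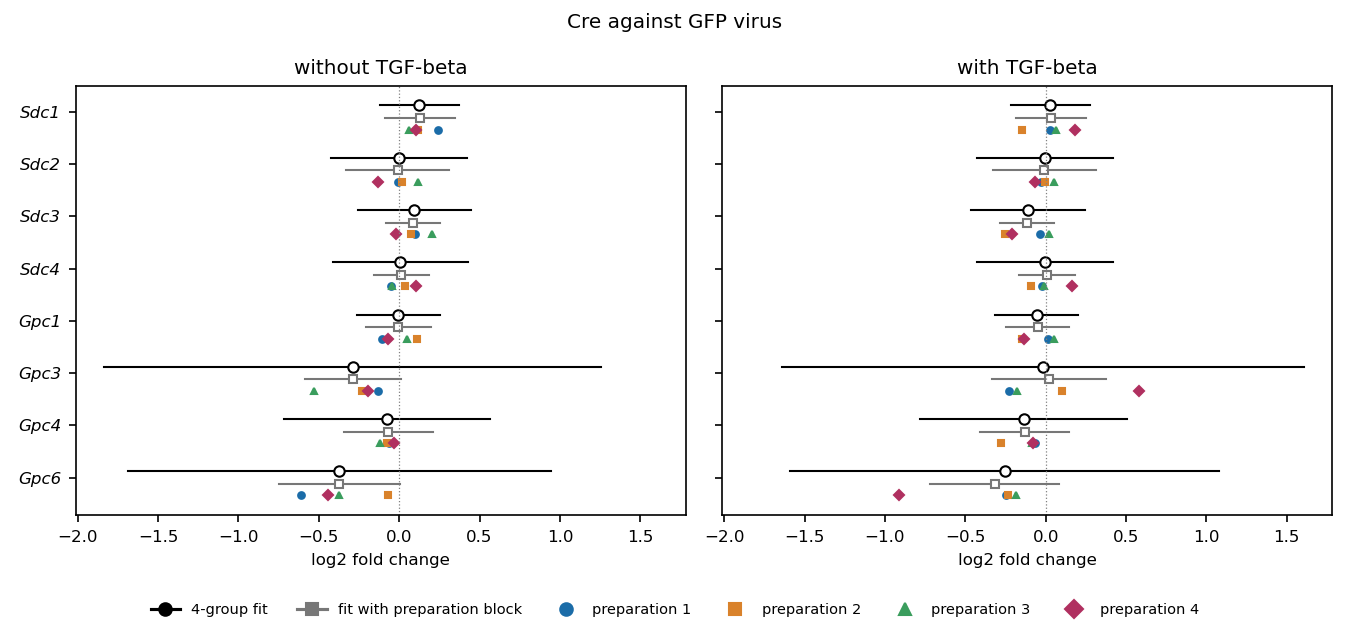
Log2 difference of each member between Cre and GFP cells, without and with TGF-beta, from the 4-group fit (black) and the fit with the block (grey), with 95% intervals as bars and coloured points for the 4 preparations. The bars are wider than the intervals of the test itself. The 4-group estimates lie between -0.37 and 0.13, none was called, and all 8 points of Gpc4 and of Gpc6 lie below 0.

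Whether the response to TGF-beta differed between Cre and GFP cells was tested directly. For no gene of the 15285 did edgeR call the difference of responses, with or without the block (90 and 501 genes at an unadjusted p under 0.05, with 0 members among them in either fit). Among the members it ran from -0.20 ± 0.23 for Sdc3 to 0.28 ± 1.03 for Gpc3. The Sdc1 difference was -0.10 ± 0.16, so its call in Cre cells alone is not shown to be a different response. For Sdc3 all 4 preparations had the larger fall in Cre cells, as 8.51% of all genes did, and the interval with the block was -0.44 to 0.03.

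The genes that work with these proteoglycans were followed in 5 lists, whose counts stand beside the 13.8% of all genes called higher and 15.3% called lower in GFP cells (22.6% and 26.5% with the block), and beside 14% and 16.3% in Cre cells (25.2% and 27.3% with the block). Of 7 other heparan sulfate proteoglycans tested, 3 were called lower with TGF-beta in GFP cells and none higher, in both fits, with a median log2 fold change of -0.44 against -0.02 over all genes. Tgfbr3 (betaglycan), the TGF-beta co-receptor, went from a mean of 45.2 to 6.54 CPM (-2.79 ± 0.24, adjusted p = 1.14e-06, edgeR). Col18a1, the basement membrane collagen that yields endostatin, went from 122 to 27.5 CPM (-2.15 ± 0.25). The neuropilin Nrp1 fell by 0.52 ± 0.18 on the log2 scale, and did not pass in Cre cells without the block (-0.35 ± 0.18).

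Among 15 tested genes for shedding and cleavage, 7 were called lower and 1 higher in GFP cells (7 and 3 with the block), with a median of -0.48. Hpse, the heparanase that cuts heparan sulfate chains, went from 16.2 to 1.58 CPM (-3.37 ± 0.27, adjusted p = 6.64e-07, edgeR). The membrane protease gene Mmp15 fell by 1.52 ± 0.27 on the log2 scale. The protease inhibitors went opposite ways, with Timp1 at 2143 and 4070 CPM (0.93 ± 0.16) and Timp2 at 2152 and 849 CPM (-1.34 ± 0.25).

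Of 23 genes that attach or build the chains, 4 were called higher and 1 lower in GFP cells (6 and 3 with the block), with a median of 0.00. Glce, the epimerase that converts glucuronic to iduronic acid in heparan sulfate, went from 38.2 to 86.0 CPM (1.17 ± 0.19). The chain polymerase Ext1 rose by 0.81 ± 0.17 and the linker enzyme B4galt7 by 0.53 ± 0.10. Hs3st1, which adds the rare sulfate that antithrombin binds, went from 30.6 to 4.27 CPM (-2.86 ± 0.31, adjusted p = 8.10e-06, edgeR).

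Among 21 partners of the syndecan tails, 6 were called higher and none lower in GFP cells (9 and 3 with the block), with a median of 0.04. Actn1, an actin cross-linker bound by Sdc4, went from 1072 to 2196 CPM (1.03 ± 0.18). Prkca, the protein kinase that Sdc4 recruits and activates, rose by 0.76 ± 0.16, while Sdc4 itself fell. Gipc1, which binds syndecan tails through a PDZ domain, rose by 0.54 ± 0.13, and the second actinin Actn4 by 0.48 ± 0.09.

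Of 32 tested heparan sulfate-binding ligands and co-receptors, 8 were called higher and 10 lower in GFP cells (11 and 13 with the block), with a median of -0.08. Wnt11, a secreted Wnt, went from 3.65 to 66.1 CPM (4.17 ± 0.23, adjusted p = 2.52e-08, edgeR). Vegfa, the vascular growth factor, went from 171 to 588 CPM (1.78 ± 0.12), and the fibronectin receptor subunit Itga5 from 347 to 1425 CPM (2.04 ± 0.16). The lipase Lpl, which is held at the cell surface by heparan sulfate, went from 93.6 to 8.62 CPM (-3.45 ± 0.33). In Cre cells the counts of genes called higher and lower, in the order of the lists above, were 0 and 3, 1 and 7, 4 and 2, 6 and 1, and 9 and 11. With the block they were 1 and 4, 1 and 9, 5 and 7, 7 and 6, and 11 and 13. No gene of these lists was called between Cre and GFP cells in either fit.

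**Figure D5:**
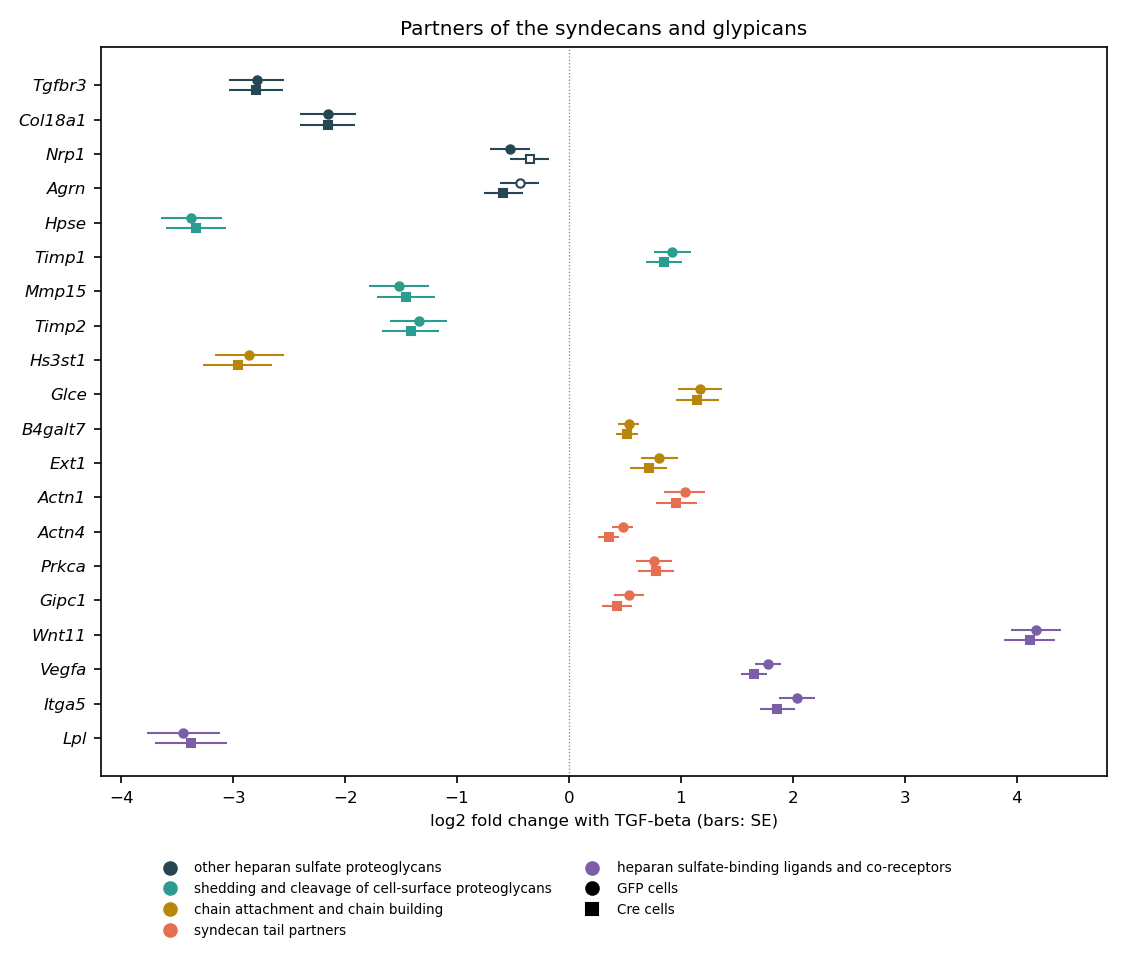
Log2 fold change with TGF-beta of 20 partner genes, 4 per list, in GFP cells (circles) and Cre cells (squares), with the SE as a bar and open symbols for genes not called. Tgfbr3, Hpse, Hs3st1 and Lpl lie below -2.5 and Wnt11 above 4 in both, and the open symbols are Agrn in GFP cells and Nrp1 in Cre cells.

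The genes whose profile was most like each member's were found by Pearson's r over the 16 libraries, after the mean of each preparation was taken out, among 11191 genes. These libraries share the TGF-beta contrast, which fills most of that variation, so r is given as a description. Nearest to Sdc4 were Sod3, Dnm1 and Nod1 (r of 0.998, 0.996 and 0.996), and nearest to Gpc1 were Pik3cb, Piezo2 and Cfl2 (each 0.996). Gpc6 lay nearest Dchs2, Susd6 and Slc7a2 (0.998, 0.996 and 0.996), and Gpc3 nearest Per3, Fcer1g and Clec11a (0.987, 0.985 and 0.985).

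For 3 members the highest r was lower. Sdc1 lay nearest Rtl8b (0.959), Sdc2 nearest Mob1a (0.930) and Gpc4 nearest Aldh3a2 (0.914). Between members, Sdc3 and Sdc4 had r = 0.968, Sdc4 and Gpc6 0.961, Gpc1 and Sdc4 -0.954, Gpc1 and Gpc3 -0.977, and Sdc2 and Gpc4 0.810.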

How the data were processed

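The deposited values are raw counts, whole numbers of reads for each gene in 16 libraries with no normalization by the authors. They were made with HTSeq 0.10.0 after FastQC 0.10.1, on mm39 (GRCm39), per the submitters' processing notes. Aligner, annotation and strand setting were not given in the sources used here. Overlapping and antisense genes are therefore uncertain. Symbols and exon lengths came from GENCODE M21, an annotation of GRCm38, which matched 52081 identifiers.

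Genes were kept by filterByExpr (minimum count 10, minimum total count 15), leaving 15285 with 99.9% of the counts, and scaled by TMM (factors 0.908 to 1.12). CPM are counts per M of the scaled library total. Differences were tested in R 4.3.3 with edgeR 4.0.16 (quasi-likelihood, robust) and limma 3.58.1, with 1 mean per group over all 16 libraries and no block, and with Benjamini-Hochberg adjustment over all genes tested. The SE was obtained from the fold change and its F value. The procedure was tested on simulated data.

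Libraries with 1 replicate number came from 1 preparation, by the code in their library names. Their deviations from group means correlated in all 24 such pairs (r from 0.323 to 0.838), against a median of -0.13 over the 72 other pairs. A second fit therefore had preparation as a block (biological coefficient of variation 0.123, against 0.254). The sex on the label was matched by Xist and Ddx3y in 16 of 16 libraries, and the libraries of a group differed by more than sampling noise in every pair (6.59 to 214, chi-square divided by genes).

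Alternatives were DESeq2 1.42.0, RLE scaling, no filter, a filter of 5 CPM in 4 libraries, sex as a covariate, only the libraries compared, raw totals, another gene length, and leaving out each library or preparation. The genes, the lists and the rule for naming were chosen with earlier results of these data known. Named were all members, Gpc2 and Gpc5, the 4 genes per list with the smallest adjusted p, and the 3 genes most like each member with a mean of at least 2 CPM (those of Sdc3 are not reported here, and only the nearest is given for Sdc1, Sdc2 and Gpc4).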

Additional observations from a re-analysis of the deposited data

Results flagged for a closer look

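In each group of 4 libraries, a library was singled out when its gap to the nearest other, as a share of the group's range, exceeded Dixon's 95% critical value. This happened in 7 of the 32 sets of 1 member in 1 group, and in all 7 the library came from preparation 4. Chance gives about 1 in 20 for a single set. The 32 sets share the same 4 preparations and are not independent, so their count cannot be held against that rate. The share of such sets over all genes was not computed. Sdc2 stood at 136 CPM in preparation 4 of GFP cells with TGF-beta, against 222 to 238 in the others. Its level there was 130 CPM in the Cre_TGFB group, against 227 to 234. Gpc4 stood at 88.5 CPM in preparation 4 of GFP cells (132 to 138 in the others), at 60.5 CPM with TGF-beta (142 to 159), and at 57.4 CPM in the Cre_TGFB group (131 to 138). Gpc6 stood at 27.1 CPM in preparation 4 of Cre cells, against 90.9 to 96.7. Gpc1 alone stood out on the high side, at 91.6 CPM in preparation 4 of GFP cells, against 66.6 to 68.5.

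Across all 32 sets, preparation 4 lay below every other preparation in 25, above in 2 and among them in 5. The share of all genes with this order was not computed, so it is not shown to be particular to these members. The code of preparation 4 begins with R and those of the other preparations with P. The mean of the others was 3.26 times its Gpc6 level in GFP cells and 8.06 times in Cre cells with TGF-beta.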

How the results depend on the processing

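No member that was called changed direction under any alternative run (0 of 976 values reversed). Of the values, 132 changed sign where neither fit called the gene. With the replicate block the count of all genes called went from 4445 to 7498 for TGF-beta in GFP cells, from 4629 to 8030 in Cre cells, and from 0 to 26 and 10 for Cre against GFP without and with TGF-beta. Among the members the block changed the Gpc3 calls alone. In the block fit without replicate 4 these counts were 8051, 8586, 114 and 232. Without replicate 3 they were 6972 for TGF-beta in Cre cells and 3 for Cre against GFP with TGF-beta. DESeq2 called 2 genes for Cre against GFP without TGF-beta. Leaving out 1 library or preparation at a time without the block gave 2239 to 6055 genes for TGF-beta in GFP cells, 2317 to 6479 in Cre cells and 0 to 17 for Cre against GFP without TGF-beta. The members called were then 2 to 5 in GFP cells and 3 to 5 in Cre cells.

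The members called for TGF-beta in Cre cells went from 5 to 3 with no filter on low counts and to 3 with only the libraries compared. Both times Sdc1 (adjusted p = 0.0644 and 0.0507, edgeR) and Gpc6 (0.122 and 0.0568) were lost. With no filter Gpc6 was also lost in GFP cells (0.0992), and with sex as a covariate Gpc3 was gained there (0.0408). Length of the longest transcript in place of all exons moved 14 of 32 group levels per kb by more than 1 SD, all of Sdc1, Sdc3, Gpc1 or Gpc6. Depth limits Gpc3, with as few as 14 counts in a library, Gpc2, and Gpc5, which had 0 counts in 14 libraries.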

Other observations

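Gpc3 and Sdc4 were higher in both female preparations (2 and 3) than in both male preparations (1 and 4) in 4 of 4 groups, and Sdc3 in 3 of 4. In GFP cells without TGF-beta the female libraries had 13.6 and 7.96 CPM of Gpc3 and the male ones 5.71 and 1.47 CPM. For Sdc4 they had 234 and 252 CPM against 196 and 162 CPM. With 2 preparations of each sex, 1 of which stood apart in many genes, sex and preparation cannot be told apart and no test was made. Gpc4, also on chromosome X, showed no such order in any group, and neither did Sdc1, Gpc1 and Gpc6. Sdc2 had the opposite order in 1 group. The share of all genes with such an order was not computed.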
